A study of Homo sapiens with 12 samples.

Results

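The 10 genes of serine, glycine and one-carbon metabolism described here are PHGDH, PSAT1, PSPH, SHMT1, SHMT2, MTHFD1, MTHFD2, MTHFD1L, SLC6A9 and ALDH1L2, chosen by name from the 60675 Ensembl genes counted in every library. Their RNA was measured by sequencing in SUDHL6 and SUDHL16, human diffuse large B-cell lymphoma (DLBCL) lines, and in a venetoclax-resistant derivative of each, with 3 libraries per group and 12 in total. Venetoclax (ABT-199) blocks the survival protein BCL2. The resistant cells had been grown under slowly rising venetoclax until they tolerated at least 10 times the IC50 of the cells they came from. The IC50 is the inhibitory dose at the midpoint of the response. The resistant lines were then kept in venetoclax, and resistant and parental cells were put into fresh medium for experiments. Whether drug was present when RNA was taken is not given in the sources used here. Resistance and continued exposure to venetoclax therefore cannot be told apart. The parental cells of the same line were the controls, so each comparison rests on a single derived line. The SUDHL6 libraries (CE-7 to CE-9 parental, CE-10 to CE-12 resistant) were made with a NEBNext Ultra II kit and the SUDHL16 libraries (CE-25 to CE-27 parental, CE-28 to CE-30 resistant) with an Illumina stranded total RNA kit, on different instruments. Kit and line therefore cannot be told apart, and each line was compared within itself.

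Cells make serine from the glycolytic intermediate phosphoglycerate by the successive action of PHGDH, PSAT1 and PSPH. Serine hydroxymethyltransferases, SHMT1 in the cytosol and SHMT2 in mitochondria, then split serine into glycine and a one-carbon unit carried on folate. The MTHFD enzymes pass that unit between its oxidation states for the building of purines and thymidylate, and dividing lymphoid cells are known as heavy users of this route. Several genes of the pathway are known targets of the stress-responsive transcription factor ATF4.

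Library totals were 33992784 to 40885665 counts in SUDHL6 and 14335460 to 22068221 in SUDHL16, apart from CE-26, a SUDHL16 parental library that stood apart with 4131927. In CE-26, 55.36% of the counts were on protein-coding genes and 31.94% were on identifiers outside GENCODE release 44, against at least 84.3% and at most 5.06% in every other library. Summed levels of 7 B-cell markers, all of which averaged at least 1 CPM (counts scaled to the size of the library) in each group, were 4052 to 4119 CPM in parental and 4209 to 4236 CPM in resistant SUDHL6, and 2360 to 3509 and 3820 to 4062 CPM in SUDHL16, higher in every resistant library of both lines. Those of 5 germinal centre markers were 403 to 417 and 563 to 574 CPM in SUDHL6 and 882 to 1233 and 908 to 1034 CPM in SUDHL16. Summed levels of 3 erythroid markers were 81.0 to 754 CPM in parental and 2.87 to 71.9 CPM in resistant SUDHL16, those of 5 fibroblast markers 19.9 to 48.9 and 0.402 to 0.659 CPM, and those of 5 T-cell markers 18.5 to 28.6 and 23.3 to 28.5 CPM. For 5 myeloid, 3 NK-cell and 5 epithelial markers the sums reached 12.1, 24.8 and 14.1 CPM in parental and 0.536, 0 and 0.737 CPM in resistant SUDHL16, where CD3D, CD2, LYZ and EPCAM were at 0, and the part of these markers in the results was not tested. The SUDHL16 fold changes are given with and without CE-26.

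The upstream sequences of the members were taken from RefSeq (GRCh38.p14), which gave windows for 7 of the 10. No window was found for PSPH, SHMT2 and ALDH1L2. Each gene's windows, from 250 bases before a start site to 50 after it, were searched on both strands for TGATGNAA (the core of a C/EBP-ATF element), CACGTG (an E box), CCAAT and TGACNNNGC (an NRF2 core). CCAAT was present for 6 of the 7 genes and for 39.7% of the 27305 genes with a window, CACGTG for 2 (MTHFD1 and MTHFD1L) and 8.77%, TGATGNAA for 1 (MTHFD1L) and 4.46%, and TGACNNNGC for 1 (MTHFD2) and 16.1%. These are matches of letters and were not tested for binding. Runs are shown for 3 members that were higher in resistant SUDHL16 and differ in their number of motif matches. A run is also shown for the only C/EBP-ATF core, with matched letters in capitals. They are PSAT1 (chr9:78296875-78297104, plus strand), SHMT1 (chr17:18363571-18363800, minus strand) and SLC6A9 (chr1:44031483-44031712, minus strand), each from 250 to 21 bases before the start site, and MTHFD1L (chr6:150866346-150866375, plus strand), from 140 to 111 bases before it. MTHFD1L had 4 windows, and this distance is from the start site of 1 of them. The same match began 90 bases before the start site of another window and 25 bases after that of a further window.
PSAT1: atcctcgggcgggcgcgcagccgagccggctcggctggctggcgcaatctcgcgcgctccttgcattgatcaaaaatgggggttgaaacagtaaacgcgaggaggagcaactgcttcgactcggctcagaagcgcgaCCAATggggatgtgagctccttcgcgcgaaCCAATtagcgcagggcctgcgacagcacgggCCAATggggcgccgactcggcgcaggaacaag
SHMT1: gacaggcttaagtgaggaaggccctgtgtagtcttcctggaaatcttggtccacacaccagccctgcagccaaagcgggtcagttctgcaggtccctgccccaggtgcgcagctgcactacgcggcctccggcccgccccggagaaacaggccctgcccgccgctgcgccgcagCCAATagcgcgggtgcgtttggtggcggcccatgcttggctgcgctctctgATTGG
SLC6A9: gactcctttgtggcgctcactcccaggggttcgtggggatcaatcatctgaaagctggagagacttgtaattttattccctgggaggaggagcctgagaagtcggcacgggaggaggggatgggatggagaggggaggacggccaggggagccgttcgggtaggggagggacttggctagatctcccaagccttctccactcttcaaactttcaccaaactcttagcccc
MTHFD1L: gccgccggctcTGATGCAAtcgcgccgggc
The PSAT1 run holds 3 CCAAT boxes, the SHMT1 run holds 1 on each strand, and the SLC6A9 window held none of the 4 motifs.

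Resistant SUDHL16 cells had more RNA for the glycine transporter SLC6A9 and for both serine hydroxymethyltransferases, whereas no member changed by 1.5-fold in SUDHL6. A gene was called where the edgeR quasi-likelihood test, fitted over all genes of a line, gave a Benjamini-Hochberg adjusted p under 0.05 and the change was at least 1.5-fold. In SUDHL16, 9 members were tested, since ALDH1L2 was filtered for low counts, and 3 were raised (SLC6A9, SHMT2 and SHMT1) and 0 lowered, against 3.2% raised and 2.1% lowered of all 15708 genes tested. Without CE-26, 5 members were raised, PHGDH and PSAT1 being the others, and 0 lowered, against 6.73% and 3.32% of 16280 genes. In SUDHL6, 10 members were tested and 0 were called, against 4.31% raised and 4.65% lowered of 16662 genes. DESeq2 and limma voom also called 0 there, and 7 members had an unadjusted edgeR p under 0.05, as did 45.2% of all genes. The median log2 fold change of the members tested was 1.03 in SUDHL16 (0.91 without CE-26) and -0.08 in SUDHL6, where the median over all genes tested was -0.02 (0.05) and 0.00.

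**Figure D1:**
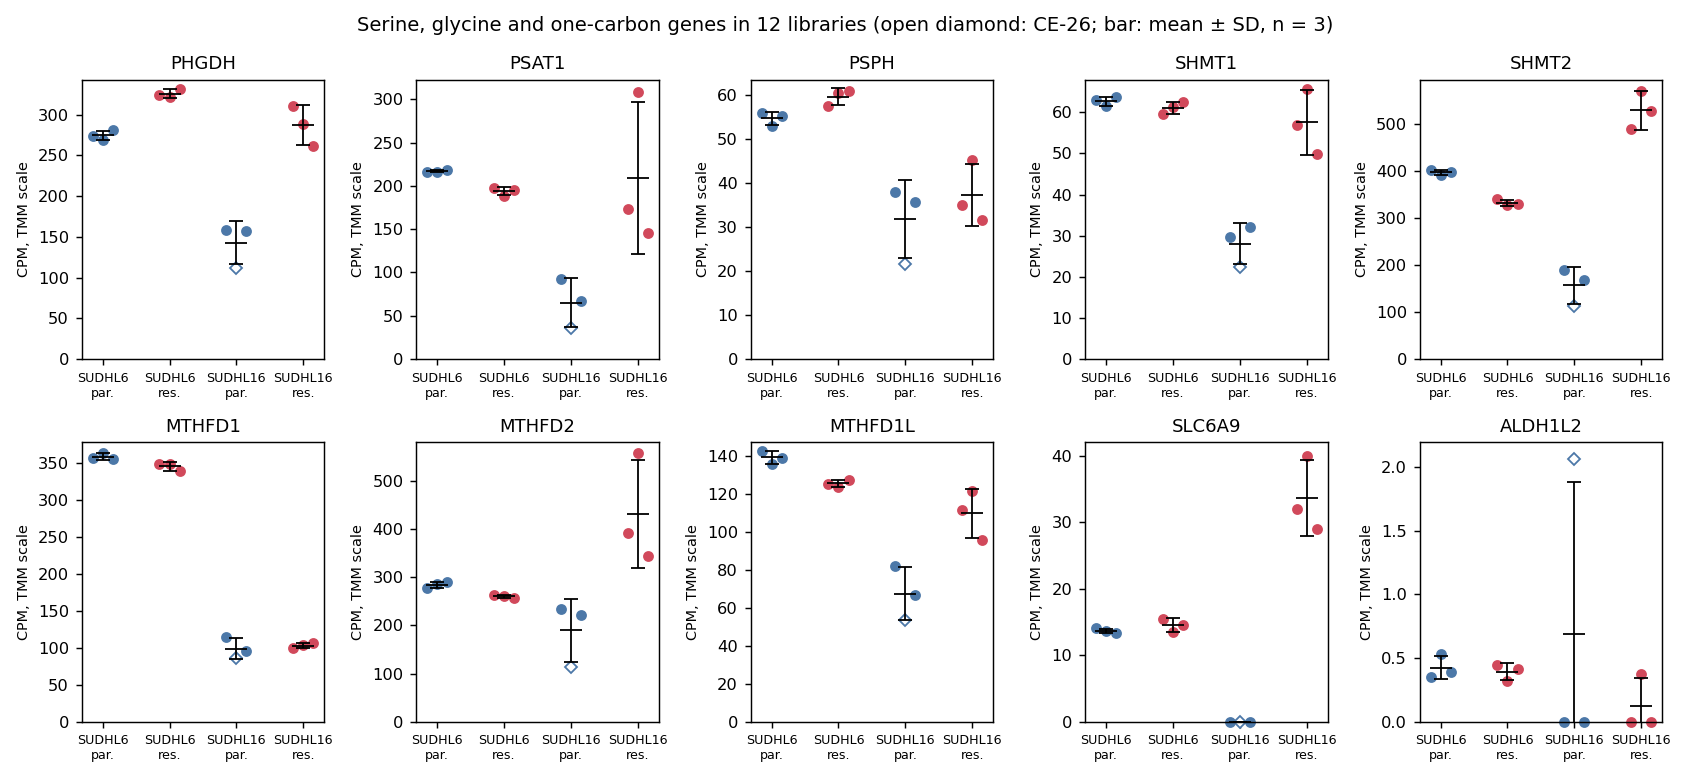
CPM on the TMM scale (y axis, from 0) of each of the 10 genes in the 12 libraries, by line and status, with CE-26 as an open diamond and the mean ± SD of 3 libraries as a bar. PHGDH, PSAT1, SHMT1, SHMT2, MTHFD2, MTHFD1L and SLC6A9 lay higher in all 3 resistant than in all 3 parental SUDHL16 libraries, while the SUDHL6 groups lay close together. Bars that would pass below 0 end at the axis.

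PHGDH (ENSG00000092621, chr1:119648411-119744218, plus strand) encodes phosphoglycerate dehydrogenase, the committing enzyme of serine synthesis. In SUDHL16 it was at 159 CPM in CE-25, 112 in CE-26 and 157 in CE-27, and at 311, 288 and 262 CPM in CE-28, CE-29 and CE-30. The 3 resistant libraries all lay above the parental ones, and CE-26 was the lowest. The log2 fold change was 1.01 ± 0.26 (SE), or 2.01-fold, with an edgeR adjusted p of 0.0635, which was not a call. Without CE-26 it was 0.87 ± 0.21 with an edgeR adjusted p of 0.0346, which was a call. In SUDHL6 PHGDH was at 274, 269 and 281 CPM in the parental and 324, 321 and 332 CPM in the resistant libraries. These groups did not overlap, and the difference of 0.25 ± 0.02 on the log2 scale (1.19-fold, edgeR adjusted p = 1.91e-06) stayed under the 1.5-fold limit.

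PSAT1 (ENSG00000135069, chr9:78297125-78330093, plus strand), the phosphoserine aminotransferase, was at 92.7, 36.2 and 66.7 CPM in CE-25, CE-26 and CE-27. In the resistant SUDHL16 libraries it was at 173, 309 and 145 CPM, so that the groups were apart and CE-29 stood well above its replicates. The log2 fold change of 1.67 ± 0.42 (3.18-fold) had an edgeR adjusted p of 0.0594, and without CE-26 it was 1.40 ± 0.35 with an edgeR adjusted p of 0.042. The SUDHL6 parental libraries held 216, 216 and 218 CPM and the resistant ones 198, 189 and 195 CPM. There PSAT1 lay lower in all 3 resistant libraries, by -0.16 ± 0.02 on the log2 scale (edgeR adjusted p = 1.01e-04).

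PSPH (ENSG00000146733, chr7:56011051-56051604, minus strand), the phosphatase that releases serine, was at 38.1, 21.7 and 35.7 CPM in CE-25, CE-26 and CE-27 and at 35.0, 45.3 and 31.7 CPM in CE-28, CE-29 and CE-30. These groups overlapped, with a log2 difference of 0.22 ± 0.28 (edgeR adjusted p = 0.746), or 0.03 ± 0.23 without CE-26. In SUDHL6 it was at 56.0, 53.0 and 55.2 CPM and at 57.6, 60.5 and 61.1 CPM. The resistant libraries were all higher, with a log2 fold change of 0.12 ± 0.03 (edgeR adjusted p = 0.0122). Its pseudogene PSPHP1 had 0 to 43 reads in a library, and PSAT1P1 to PSAT1P4 had at most 6 each.

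SHMT2 (ENSG00000182199, chr12:57229573-57234935, plus strand), the mitochondrial hydroxymethyltransferase, was at 189, 112 and 168 CPM in CE-25, CE-26 and CE-27 and at 488, 570 and 527 CPM in CE-28, CE-29 and CE-30. The groups were apart, and CE-26 was the lowest. SHMT2 rose by 1.75 ± 0.29 on the log2 scale (3.37-fold, edgeR adjusted p = 0.0126), and 1.57 ± 0.21 without CE-26 (edgeR adjusted p = 0.00269). The call was lost when CE-27, CE-28, CE-29 or CE-30 was left out, with edgeR adjusted p from 0.0607 to 0.0815, while the log2 change stayed between 1.57 and 1.92 over the 14 alternatives. In SUDHL6 SHMT2 went the other way, from 402, 390 and 397 CPM to 340, 328 and 329 CPM. That difference of -0.26 ± 0.02 on the log2 scale (edgeR adjusted p = 8.2e-07) was smaller than 1.5-fold. On the opposite strand SHMT2 overlaps NDUFA4L2, which had 120, 11 and 86 reads in parental and 1404, 1471 and 945 in resistant SUDHL16. SHMT2 itself had 3430, 326 and 2712 reads in the former and 7284, 12122 and 12397 in the latter. Whether the counting separated the strands is not given in the sources used here, and the part of NDUFA4L2 in the SHMT2 result was not tested.

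SHMT1 (ENSG00000176974, chr17:18327860-18363563, minus strand), the cytosolic form, was at 29.6, 22.4 and 32.1 CPM in the parental SUDHL16 libraries and at 56.9, 65.7 and 49.9 CPM in the resistant ones. The groups were apart, and the log2 fold change of 1.03 ± 0.24 (2.04-fold, edgeR adjusted p = 0.0448) was a call, as was the 0.91 ± 0.22 without CE-26 (edgeR adjusted p = 0.0364). Leaving out CE-25, CE-27, CE-28, CE-29 or CE-30 ended the call, with edgeR adjusted p from 0.107 to 0.207, as did scaling by library totals (0.113) and testing with no filter on low counts (0.0712). Of 25 protein-coding genes tested within 1000000 bases of SHMT1, 20 had a higher level in resistant SUDHL16 and the median change was 0.72 on the log2 scale (24 and 0.84 without CE-26), and their part in the SHMT1 result was not tested. In SUDHL6 SHMT1 was at 62.9, 61.5 and 63.7 CPM and at 59.5, 61.3 and 62.5 CPM, overlapping groups with a log2 fold change of -0.04 ± 0.03 (edgeR adjusted p = 0.372).

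MTHFD2 (ENSG00000065911, chr2:74186172-74217565, plus strand), the mitochondrial methylenetetrahydrofolate dehydrogenase, was at 234, 114 and 221 CPM in parental SUDHL16. The resistant libraries held 391, 557 and 343 CPM, all above the parental ones. The log2 fold change of 1.18 ± 0.36 (2.26-fold) had an edgeR adjusted p of 0.109, and 0.93 ± 0.26 without CE-26 had 0.0592, so that neither was a call. DESeq2 called it, with an adjusted p of 0.00935. In SUDHL6 it was at 278, 286 and 290 CPM and at 263, 260 and 258 CPM, lower in all 3 resistant libraries by -0.13 ± 0.02 on the log2 scale (edgeR adjusted p = 4.93e-04).

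MTHFD1L (ENSG00000120254, chr6:150865679-151101887, plus strand), which makes formate in mitochondria, was at 81.8, 53.7 and 66.9 CPM in CE-25, CE-26 and CE-27 and at 112, 122 and 95.7 CPM in CE-28, CE-29 and CE-30. These groups were apart, but the log2 fold change of 0.70 ± 0.24 had an edgeR adjusted p of 0.159, and 0.57 ± 0.22 without CE-26 had 0.159. In SUDHL6 the 143, 136 and 139 CPM of the parental libraries lay above the 125, 124 and 127 CPM of the resistant ones. On the log2 scale the difference was -0.15 ± 0.03 (edgeR adjusted p = 6.22e-04).

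MTHFD1 (ENSG00000100714, chr14:64388031-64463457, plus strand), the cytosolic enzyme with 3 activities on folate, was the other member besides PSPH whose SUDHL16 groups overlapped among those tested. It was at 114, 86.1 and 95.5 CPM in the parental libraries and at 99.3, 103 and 107 CPM in the resistant ones. The log2 difference was 0.06 ± 0.22 (edgeR adjusted p = 0.916) and -0.01 ± 0.20 without CE-26, its sign differing between settings. In SUDHL6 it was at 357, 364 and 356 CPM and at 348, 350 and 339 CPM, a difference of -0.05 ± 0.02 on the log2 scale (edgeR adjusted p = 0.045).

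SLC6A9 (ENSG00000196517, chr1:43991500-44031467, minus strand), the glycine transporter GlyT1, had 0 reads in CE-25, CE-26 and CE-27. In CE-28, CE-29 and CE-30 it had 478, 851 and 682 reads, or 32.02, 40.04 and 29.01 CPM. Set against a floor of 3 counts over the 3 parental libraries (0.0807 CPM), the resistant mean of 33.7 ± 5.70 CPM (SD, n = 3) was at least 417-fold higher, or at least 385-fold without CE-26, a bound that covers counting error only. The edgeR adjusted p was 5.55e-04 and 1.22e-04 without CE-26, and SLC6A9 was called under all 14 alternatives. In SUDHL6 both groups expressed it, at 14.1, 13.6 and 13.4 CPM and at 15.5, 13.5 and 14.5 CPM. They overlapped, with a log2 fold change of 0.08 ± 0.07 (edgeR adjusted p = 0.397). CCDC24, which overlaps SLC6A9 on the other strand, had 220, 49 and 199 reads in parental and 323, 277 and 328 in resistant SUDHL16. The antisense RNA gene ENSG00000230615, which also overlaps SLC6A9, had 0, 8 and 0 reads in parental and 62, 56 and 202 in resistant SUDHL16. The part of these overlapping genes in the SLC6A9 result was not tested.

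ALDH1L2 (ENSG00000136010, chr12:105019784-105107643, minus strand), a mitochondrial formyltetrahydrofolate dehydrogenase, was barely detected. It had 12 to 18 reads in each SUDHL6 library, and its log2 fold change there was -0.11 ± 0.34 (edgeR adjusted p = 0.844). In SUDHL16 it had 6 reads in CE-26, 8 in CE-29 and 0 in the other 4 libraries, so no difference was detectable at this depth.

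**Figure D2:**
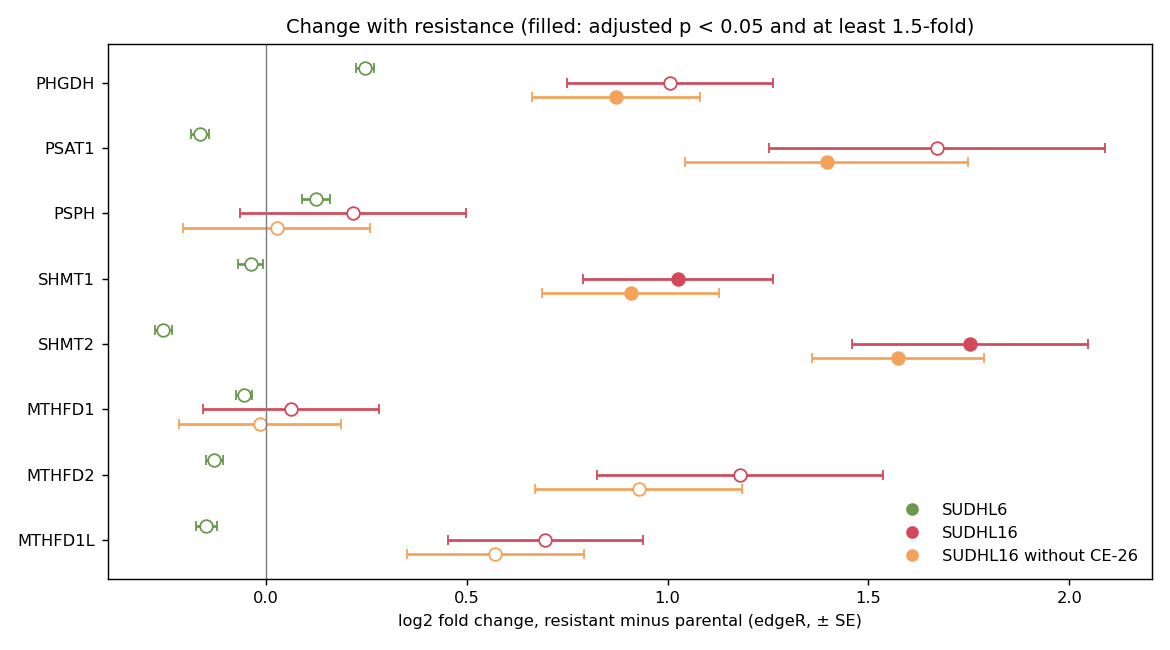
Log2 fold change of resistant against parental cells (x axis, edgeR, ± SE) of the 8 members with reads in all groups and enough for a test in both lines, in SUDHL6, in SUDHL16 and in SUDHL16 without CE-26, with filled points for calls. SHMT1 and SHMT2 are filled with and without CE-26, PHGDH and PSAT1 only without it, and no SUDHL6 point is filled.

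In SUDHL16, 7 of the 9 members tested were higher in all 3 resistant than in all 3 parental libraries and 0 were lower, where 14.6% and 11.9% of all genes tested did so. Without CE-26 these shares of all genes were 22.4% and 19.8%, and the counts of members were again 7 and 0. In SUDHL6, 2 members (PHGDH and PSPH) were higher in all resistant libraries and 5 were lower (PSAT1, SHMT2, MTHFD1, MTHFD2 and MTHFD1L), against 23.1% and 24.8% of all genes. The same 2 and 5 had an adjusted p under 0.05 with no limit on the fold change, against 17.7% and 19.7% of genes. None of these 7 reached 1.5-fold, PHGDH (0.25) and SHMT2 (-0.26) having the largest log2 changes of them.

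For 4 members the lines differed in their response, the change being larger in SUDHL16, by the interaction term of 1 edgeR fit of all 12 libraries. The log2 difference was 2.03 ± 0.30 for SHMT2 (edgeR adjusted p = 0.00164), 1.83 ± 0.49 for PSAT1 (0.0443) and 1.08 ± 0.25 for SHMT1 (0.0208), and SLC6A9 had an edgeR adjusted p of 1.74e-06. Of all 19621 genes, 7.16% passed this test. The fit shares 1 spread per gene over both lines, although the lines differed in spread. The edgeR coefficient of variation between libraries was 0.052 in SUDHL6 alone, 0.468 in SUDHL16 alone and 0.369 in a fit of all 12. The SE and edgeR adjusted p of this fit can therefore be too small for the more variable SUDHL16. PSAT1, which passed here, had an edgeR adjusted p of 0.0594 in SUDHL16 alone. PSAT1 and SHMT2 were lower in resistant SUDHL6 and higher in resistant SUDHL16, as were MTHFD2 (1.32 ± 0.40, edgeR adjusted p = 0.0747) and MTHFD1L (0.86 ± 0.26, edgeR adjusted p = 0.0742), which missed the threshold. PHGDH was higher in resistant cells of both lines and its difference of 0.78 ± 0.25 also missed it (edgeR adjusted p = 0.0941). Without CE-26, 7 members passed, including these 3, against 14.0% of all genes. Leaving out any 1 of the 6 SUDHL6 libraries left 2 members, where 4.09% to 4.26% of all genes passed. Leaving out CE-29 also left 2, where 5.52% did. SHMT2 and SLC6A9 were called in all of the 14 alternatives run.

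Levels were set against each other as CPM per kilobase of the canonical transcript. In parental SUDHL6 the order was SHMT2 at 184 ± 2.75, PHGDH at 147 ± 3.09, MTHFD1 at 114 ± 1.41, PSAT1 at 98.3 ± 0.577, MTHFD2 at 64.6 ± 1.43, MTHFD1L at 40.3 ± 0.991, PSPH at 27.7 ± 0.785, SHMT1 at 24.8 ± 0.445, SLC6A9 at 4.27 ± 0.104 and ALDH1L2 at 0.0573 ± 0.0126 CPM per kilobase (SD, n = 3). No neighbours in this order had overlapping ranges. In resistant SUDHL6 the first places were exchanged, with PHGDH at 175 ± 2.87 and SHMT2 at 154 ± 3.07 CPM per kilobase, and the rest kept their places. In parental SUDHL16 PHGDH (76.5 ± 14.3) and SHMT2 (72.6 ± 18.4) headed an order in which the range of each of the first 7 genes overlapped that of the next. Without CE-26 both still came first, at 84.7 and 82.8 CPM per kilobase, and the only overlaps among the 8 genes with reads were between these 2 and between PSAT1 (36.1) and MTHFD1 (33.2). In resistant SUDHL16 SHMT2 stood first at 245 ± 19.1 CPM per kilobase, its range apart from that of PHGDH (154 ± 13.2), and was followed by MTHFD2 (97.7 ± 25.5) and PSAT1 (94.7 ± 39.8), which overlapped. MTHFD1 (32.7 ± 1.16) and MTHFD1L (31.8 ± 3.80) overlapped as well, and so did SHMT1 (22.8 ± 3.13) and PSPH (18.9 ± 3.58). The order depends on the length used, since by the merged length of all annotated exons PSAT1 came first and MTHFD1 sixth in parental SUDHL6. By that length SHMT2 ranked 2 and PHGDH 3 in both SUDHL6 groups, so their places were not exchanged. In parental SUDHL16 SHMT2 then ranked 1 and PHGDH 4.

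Ratios of reads between members within a library need no scaling between libraries. In parental SUDHL16 SHMT2 had 4.96, 5.17 and 4.72 reads for each read of PSPH, CE-26 included, and in resistant SUDHL16 13.9, 12.6 and 16.6. The ratio was 2.89-fold higher, and CE-26 was the highest of the parental libraries. The mitochondrial to cytosolic ratio SHMT2 to SHMT1 went from 6.38, 5.02 and 5.25 to 8.57, 8.68 and 10.6. For MTHFD2 to MTHFD1 it went from 2.05, 1.32 and 2.32 to 3.94, 5.39 and 3.22, with CE-26 the lowest in each. Both ratios were higher in every resistant SUDHL16 library and lower in every resistant SUDHL6 library. There SHMT2 to SHMT1 went from 6.39, 6.34 and 6.24 to 5.71, 5.35 and 5.26. A further such ratio, MTHFD1L to MTHFD1, was 0.624 to 0.717 in parental and 0.898 to 1.18 in resistant SUDHL16. In SUDHL6 its groups overlapped, at 0.373 to 0.399 in parental and 0.354 to 0.376 in resistant libraries. PHGDH to SHMT2 moved in opposite directions, from 0.682, 0.690 and 0.707 to 0.954, 0.980 and 1.01 in SUDHL6 and from 0.839, 0.997 and 0.935 to 0.637, 0.506 and 0.496 in SUDHL16. The exact permutation test (two-sided) gave p = 0.1 for each ratio named here, except MTHFD1L to MTHFD1 in SUDHL6 (p = 0.2). A p of 0.1 is the smallest that 3 against 3 libraries can give. After adjustment over the 18 tests of 9 quantities in both lines, the permutation p of 0.1 became 0.113 and that of 0.2 became 0.212. None could therefore pass. The summed level of all 10 members, as CPM of the library total with no further scaling, was 1020, 394 and 901 in CE-25, CE-26 and CE-27 and 1768, 2221 and 1693 in the resistant SUDHL16 libraries, a group that lay wholly above the parental one. In SUDHL6 the sum lay between 1784 and 1805 without resistance and between 1711 and 1734 with it.

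**Figure D3:**
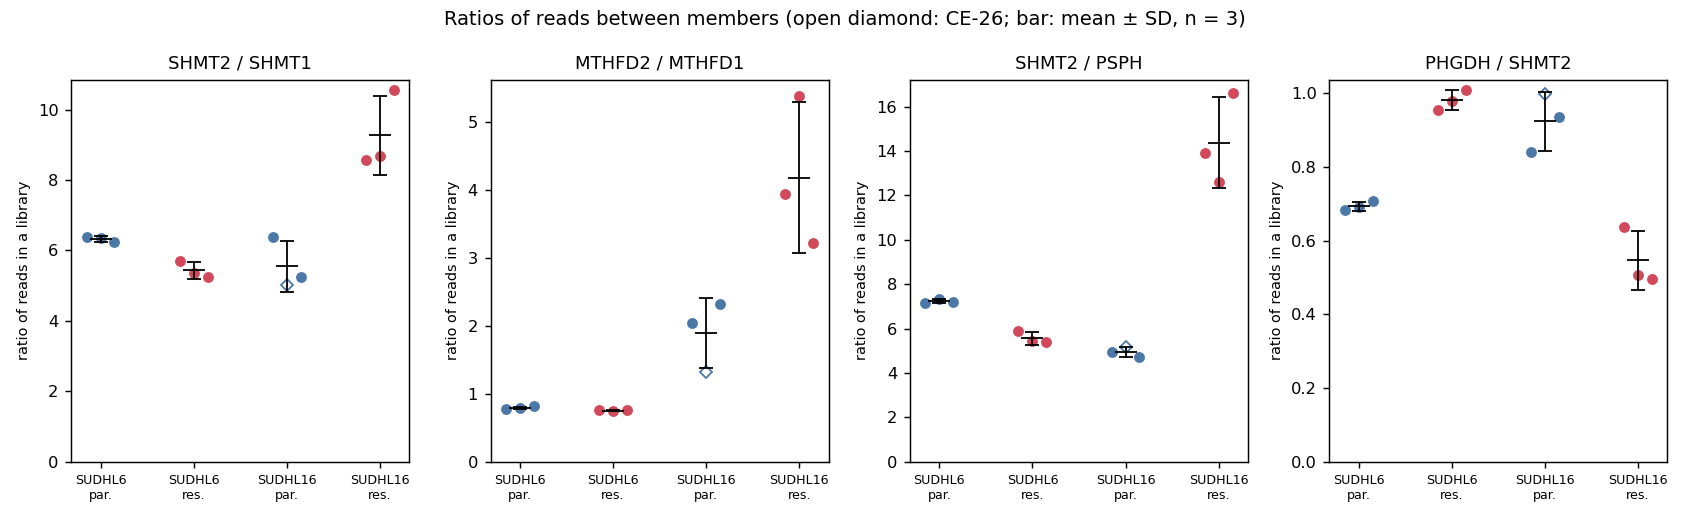
Ratio of the reads of 2 members within each library (y axis, from 0) by line and status, with CE-26 as an open diamond and the mean ± SD of 3 libraries as a bar. SHMT2 to PSPH was 4.72 to 5.17 in parental and 12.6 to 16.6 in resistant SUDHL16, and PHGDH to SHMT2 was higher in resistant SUDHL6 and lower in resistant SUDHL16.

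Around these enzymes, 6 lists of 93 genes were counted, with 9 of 14 transporters of serine and glycine tested in SUDHL16 and 10 in SUDHL6. Over all genes tested, 3.2% were raised and 2.1% lowered in SUDHL16 (6.73% and 3.32% without CE-26), and 4.31% and 4.65% in SUDHL6. SLC38A2, a sodium-coupled carrier of small neutral amino acids, was the only listed gene called in both lines. It fell in SUDHL6 from 135, 142 and 135 CPM to 87.2, 86.1 and 87.4 CPM (a log2 change of -0.66 ± 0.03, edgeR adjusted p = 2.44e-09) and rose in SUDHL16 from 101, 59.2 and 69.8 CPM to 160, 285 and 205 CPM (1.49 ± 0.32, edgeR adjusted p = 0.0335, and 1.35 with adjusted p = 0.0265 without CE-26). The groups were apart in each line, and the log2 difference between the lines was 2.17 ± 0.36 (edgeR adjusted p = 0.00313), or 1.97 ± 0.30 without CE-26. The other transporters tested were not called in either line. The list's median log2 fold change was -0.10 in SUDHL6 and 0.23 in SUDHL16, and without CE-26 the SUDHL16 median was -0.03 and SLC36A1 and SFXN3 were lowered, both named after their values were seen.

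Of 14 genes of glycine cleavage and of serine or glycine breakdown, 8 were tested in each line. DLD, the dihydrolipoyl dehydrogenase that glycine cleavage shares with other complexes, rose in SUDHL16 from 62.5 ± 3.23 to 150 ± 37.6 CPM (SD, n = 3, a log2 change of 1.26 ± 0.26, edgeR adjusted p = 0.0276, and 1.24 without CE-26), and 0 of the 8 were called in SUDHL6. The medians were 0.77 in SUDHL16 (0.75 without CE-26) and 0.01 in SUDHL6. Among 14 genes of the methionine cycle and transsulfuration, AHCY, which hydrolyses S-adenosylhomocysteine, rose in SUDHL16 from 114 ± 38.9 to 288 ± 20.1 CPM (1.33 ± 0.32, edgeR adjusted p = 0.0489, and 1.09 without CE-26), 1 of 9 tested, and 0 of 11 were called in SUDHL6. Of 16 genes of folate uptake and interconversion, 0 of 12 were called in SUDHL16 and 0 of 14 in SUDHL6, and of 13 genes of purine synthesis, 0 of 13 and 0 of 12. The purine medians were -0.14 in SUDHL16 (-0.17 without CE-26) and -0.07 in SUDHL6. The folate medians were -0.15 and -0.05, the former changing sign to 0.03 without CE-26. Without CE-26, TYMS and MTHFS were raised and SLC46A1 was lowered in the folate list, CTH and PEMT were raised in addition to AHCY, GATM was raised in addition to DLD, and 0 purine genes were called, these genes being named after their values were seen.

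A further list held 22 genes, ATF4 and targets of it outside the pathway. In SUDHL16, 8 of 21 tested were raised and 0 lowered, against 3.2% and 2.1% of all genes. The median log2 change was 1.09, or 1.46 without CE-26. In SUDHL6, 1 of 22 (SLC7A11, the cystine transporter subunit) was raised, against 4.31% of all genes, and the median was -0.12. The 2 with the smallest adjusted p in SUDHL16 were TRIB3, a pseudokinase, from 38.1 ± 5.08 to 338 ± 15.4 CPM (3.14 ± 0.26, edgeR adjusted p = 5.55e-04, and 3.05 without CE-26), and CEBPB, a transcription factor, from 17.5 ± 3.60 to 104 ± 12.9 CPM (2.56 ± 0.25, edgeR adjusted p = 0.00113, and 2.55 without CE-26). ATF4 RNA itself averaged 406 ± 124 CPM in the parental SUDHL16 libraries and 433 ± 81.9 CPM in the resistant ones (0.09 ± 0.32, edgeR adjusted p = 0.918, and -0.11 without CE-26). SLC7A11 went from 19.9 ± 0.118 to 30.6 ± 0.336 CPM in SUDHL6 (0.62 ± 0.05, edgeR adjusted p = 8.09e-07). Without CE-26, 13 of the list were raised in SUDHL16, where 6.73% of all genes were.

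**Figure D4:**
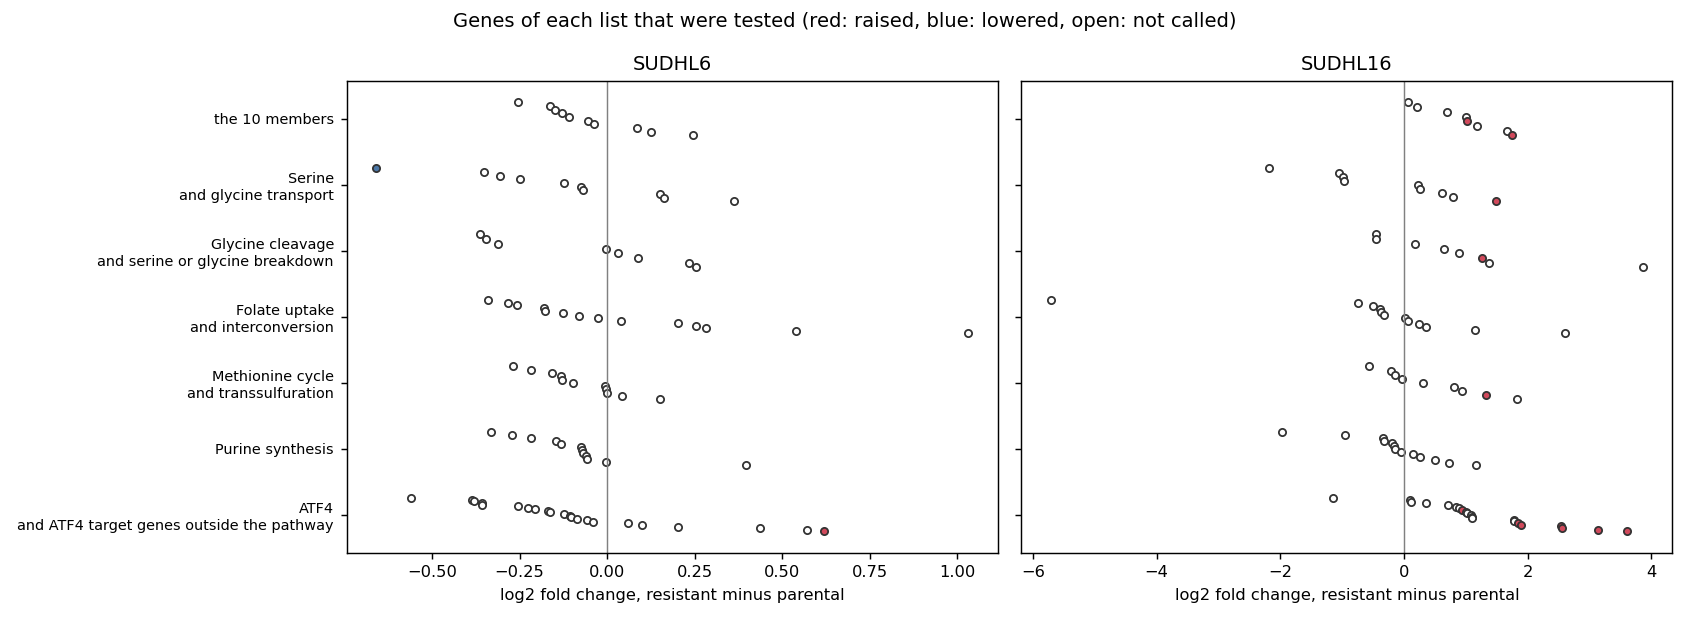
Log2 fold change of resistant against parental cells (x axis, a different range in each panel) for each gene tested in the 10 members and 6 wider lists, red for raised, blue for lowered and open for not called. In SUDHL16 2 member points and 8 ATF4 list points are red, SLC6A9 being left out there because its parental libraries were at 0, and in SUDHL6 SLC38A2 is the only blue and SLC7A11 the only red point.

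The genes most like PHGDH, SHMT2 and MTHFD2 were sought among the 8860 protein-coding genes that averaged 5 CPM or more in each line, by Pearson's r of log2 CPM over the 12 libraries after subtracting the mean of each line. These correlations describe libraries that fall into groups and share kit, depth and status, and carry no test. For PHGDH the closest genes outside the lists were TRIM25 (0.987), CNN2 (0.986) and VPS53 (0.984), with r of 0.971 to 0.981 without CE-26, and the closest member was SHMT1 (0.949), or SLC6A9 (0.941) without CE-26. For SHMT2 they were AKR1B1 (0.995), PCDHGC3 (0.993) and AURKB (0.991), with 0.986 to 0.994 without CE-26, and the closest member was SHMT1 (0.970), or SLC6A9 (0.977) without CE-26. For MTHFD2 they were CAMKK2 (0.989), ESYT1 (0.989) and GEMIN4 (0.987), with 0.967 to 0.979 without CE-26, and PSAT1 was the closest member with CE-26 (0.989) and without it (0.987). MTHFD1 had the lowest r of the members compared with each of the 3, at 0.389, 0.501 and 0.578. Without CE-26 its r was -0.25, 0.04 and -0.03, and PSPH (0.01) was then below it for SHMT2.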

How the data were processed

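The authors trimmed reads with TrimGalore, aligned them to GRCh38 with HISAT2 and assembled them with StringTie, and deposited raw counts of reads per Ensembl gene for each of 12 libraries. The counting annotation and strand setting are not given in the sources used here, so overlapping genes may share reads. Groups came from the labels, which do not say whether the 3 libraries of a group were separate cultures. If not, p-values measure technical spread only.

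Symbols and positions came from GENCODE release 44, which held 56558 of the 60675 identifiers. Each line was fitted alone with edgeR 4.0.16 in R 4.3.3 (filterByExpr, TMM, two-sided quasi-likelihood test), and the SE is the log2 fold change over the root of its F statistic. CPM are on the TMM scale. Lower bounds use a floor of 3 counts. Alternatives were DESeq2 1.42.0, limma voom 3.58.1 with sample quality weights, upper-quartile scaling, library totals, no low-count filter, protein-coding genes only, no fold limit, a fit of all 12 libraries, and each library left out. Tables and ratios used Python 3.11.15 with pandas 2.3.3.

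The members and the gene lists were chosen with earlier results of these data known. All 10 members were named. From each list, genes called in both lines were named, with up to 2 called genes of smallest adjusted p per line.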

Additional observations from a re-analysis of the deposited data

Results flagged for a closer look

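The changes of 4 members differed between the lines by the interaction term of the edgeR fit of all 12 libraries, which is why they are listed here. On the log2 scale the SUDHL16 change minus the SUDHL6 change was 2.03 for SHMT2, 1.83 for PSAT1 and 1.08 for SHMT1. For SLC6A9 the edgeR adjusted p was 1.74e-06, and no fold is given because its parental SUDHL16 libraries were at 0. Line, kit and instrument cannot be told apart in this comparison. The fit also shares 1 spread per gene over both lines, which differ in spread.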

How the results depend on the processing

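No paired analysis was possible because the labels give no replicate numbers. In SUDHL6, 0 members were called under the alternatives run, except with no limit on the fold change, which gave 7, and leaving out each library gave 0 to 0. In SUDHL16 the 3 calls, where 3.2% of all genes were raised, became 6 with DESeq2 (5.95% of all genes), 5 with protein-coding genes only (4.68%), 7 in a fit of all 12 libraries (8.1%), 6 with limma voom (10.7%) and 2 with library totals (3.28%), SHMT1 being lost. With no filter SHMT1 was lost and PSAT1 gained (1.32%). Leaving a library out gave 1 to 5, with 5 without CE-26 (6.73%), 2 without CE-25 (1.3%) and 1 without each of the others (0.973% to 1.45%). Members differing between the lines numbered 7 with DESeq2 (14.9% of all genes) and 7 with limma voom (14.6%). With a library left out they numbered 2 to 7 (4.09% to 14%). Every one of these calls was in the raised direction in SUDHL16. The edgeR fits of all 12 libraries share 1 spread per gene over both lines, which differ in spread. The sign changed for ALDH1L2 in SUDHL6 without CE-8 or CE-11, its log2 change running from -0.216 to 0.0753 with a library left out, for MTHFD1 in SUDHL16 with upper-quartile scaling (-0.0289), with limma voom (-0.0036) and without CE-26 (-0.0137 to 0.192 with a library left out), and for the log2 difference between lines of PSPH with limma voom (-0.0756) and without CE-26 or CE-29 (-0.14 to 0.302), of MTHFD1 without CE-26 (-0.0021 to 0.342) and of ALDH1L2 with limma voom (1.17) and without CE-26 (-6.24 to 4.89). The cause was not tested. In SUDHL16 the median log2 fold change of all genes was -0.11 with upper-quartile scaling, 0.11 with library totals and -1.18 with no filter, against -0.02. Low counts limit ALDH1L2, and CE-26 differs from the other libraries in depth and in composition. The levels per kilobase, correlations, neighbour counts and list medians without CE-26 were chosen after seeing the data. The ratios of reads, their permutation tests and the summed level of the members were not among the planned tests.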

Other observations

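Thymidylate synthase (TYMS), which uses a folate-borne one-carbon unit to make thymidylate, was examined after its values were seen. In SUDHL6 TYMS averaged 128 ± 0.802 CPM in the parental libraries and 186 ± 1.89 CPM in the resistant ones (SD, n = 3), a log2 fold change of 0.54 ± 0.02 that passed the edgeR test (adjusted p = 1.88e-09) but not the 1.5-fold limit. In SUDHL16 TYMS was at 60.2 ± 14.8 and 134 ± 24.1 CPM (1.14 ± 0.27, edgeR adjusted p = 0.0509), and the log2 fold change without CE-26 was 0.97 (edgeR adjusted p = 0.0360).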
